A study of Mus musculus with 6 samples.

Results

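Voltage-gated sodium and calcium channels were followed as a family of 35 genes, chosen as the genes whose symbol begins with Scn and a digit or with Cacna, Cacnb or Cacng and that have a probe set of the array to themselves. They are 35 of 18193 genes measured, with 85 probe sets among them, and each gene is represented by the probe set that averaged highest across its 6 values. RNA came from cells sorted from the mouse colon, 3 libraries labelled EGFP-positive and described as colonic neurons and 3 labelled EGFP-negative and described as myenteric cells. All 6 came from the strain Mapttm1(EGFP)Klt/J, in which the neuronal Mapt locus drives EGFP, and cholera toxin B coupled to an Alexa Fluor dye had been injected into the celiac ganglion of all mice 3 to 4 days earlier. Each library pooled the cells of 2, 4 or 6 mice, and the sources used here do not state their age, sex or number of EGFP alleles. Mapt itself read 1.43, 1.32 and 5.55 under the positive label and 1.44, 1.64 and 1.38 under the negative label. It was therefore near background in EGFP-positive replicates 1 and 2, and groups are named below by their labels only.

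Sodium channel alpha subunits form the pore that carries the rising phase of the action potential, and beta subunits modulate its gating and anchor it in the membrane. Calcium channel alpha1 subunits form the pores of L-type channels, which drive contraction of smooth muscle, of P/Q-, N- and R-type channels, which trigger transmitter release, and of low-voltage T-type channels. The alpha2delta and calcium channel beta subunits bring these pores to the surface. Scn7a encodes Nax, an atypical member of the sodium channel family that senses extracellular sodium and that glia are known to express. Several genes named Cacng encode auxiliary subunits of AMPA-type glutamate receptors rather than of calcium channels.

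Values are deposited log2 expression values, listed by replicate number (1, 2, 3) within a label, and each difference is EGFP-positive minus EGFP-negative. Probe sets for a bacterial transcript that was not added, TrpnX, read 1.00 to 1.48, and a log2 value of 3 was used as a working level well above this background. Between 6182 and 7621 of 45101 probe sets exceeded log2 6 in a library. The marker lists showed mixed cell populations under both labels. Smooth muscle genes averaged 8.17 to 10.45, mesothelial genes 7.27 to 9.63 and epithelial genes 3.84 to 7.68 in the 6 libraries. Macrophage genes averaged 6.25, 3.12 and 2.01 under the positive label and 7.75, 8.32 and 6.35 under the negative label. The number of arrays limits the precision.

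Most channel genes were quiet in most libraries, and EGFP-positive replicate 3 held by far the most channel transcripts. Of the 35 genes, 16 exceeded log2 3 in at least 1 library, against 60.3% of all genes, and 3 did so in every library, which were Scn7a, Cacna1h and Cacna2d1. The number above log2 3 was 4, 4 and 14 under the positive label and 4, 5 and 8 under the negative label. Over all genes that share stayed between 49.5% and 54.2% in the 6 libraries. The 19 genes that never exceeded log2 3 read between 0.92 and 2.71. In this bulk measurement fewer cells of a type and less RNA per cell cannot be told apart. The 19 quiet genes were Cacna1a, Cacna1f, Cacna1s, Cacna2d3, Cacna2d4, Cacnb4, all 8 Cacng genes measured (Cacng1 to Cacng8), Scn1a, Scn4b, Scn8a, Scn9a and Scn10a.

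**Figure D1:**
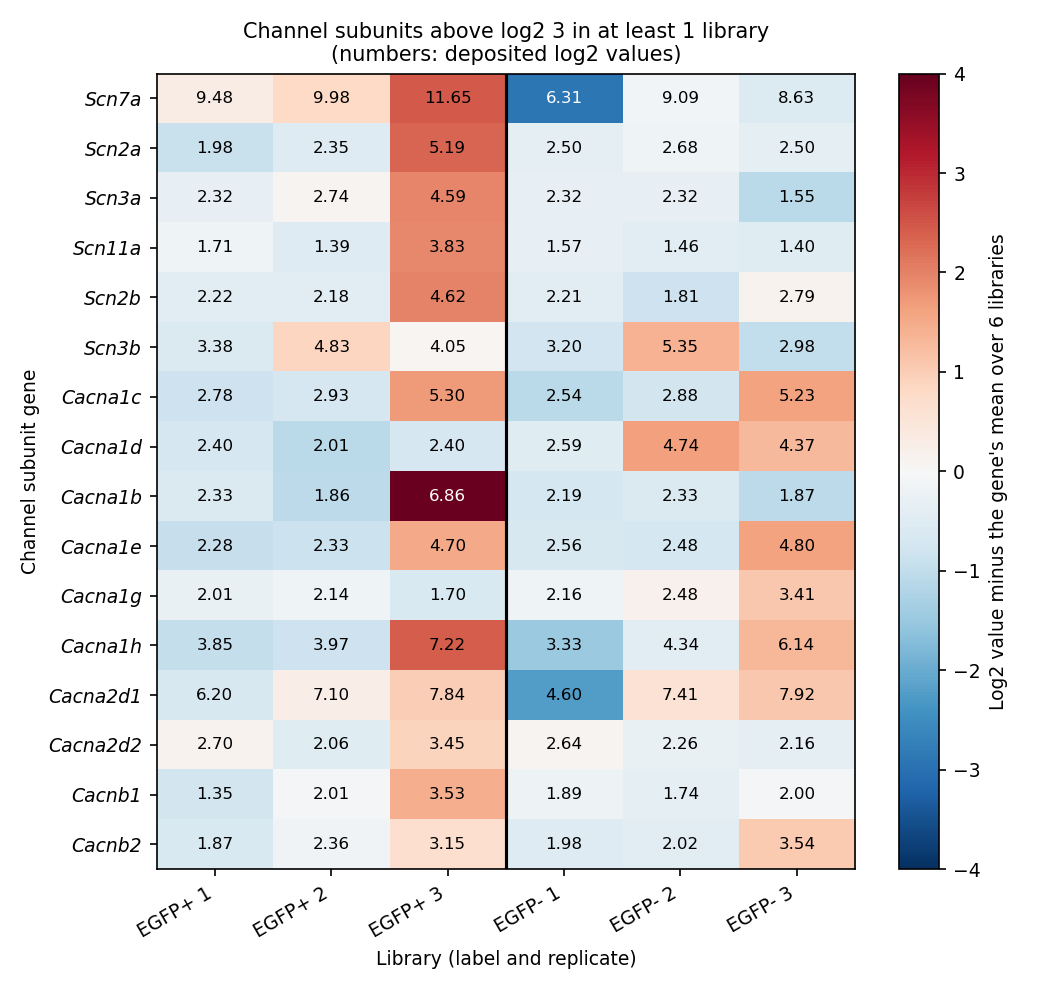
Heat map of the 16 channel subunit genes above log2 3 in at least 1 library (rows) in the 6 libraries (columns, split by label). Numbers are deposited log2 values and colours are the value minus the gene's mean over the 6 libraries. EGFP-positive replicate 3 is the highest library for Scn7a (11.65), Cacna1b (6.86), Scn2a (5.19) and others, and both replicates 3 are high for Cacna1c (5.30 and 5.23).

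Across all genes no channel gene passed the test between the labels. With limma and Benjamini-Hochberg adjustment over all 18193 genes, 0 of 35 passed adjusted p 0.05, as did 0.00% of all genes, and at an unadjusted p under 0.05 there were 2 of 35, Scn7a and Cacna1d, against 4.91% of all genes. With the replicate number as a block, these were again 0 genes past the threshold and 2 channel genes, Scn7a and Cacna1d, at an unadjusted p under 0.05, against 7.39% of all genes. The groups did not overlap for 5 of 35, a share of 14.3% against 9.11% of all genes. Scn7a was the 1 of these 5 that was higher under the positive label (3.07% of all genes), and Cacna1d, Cacna1g, Cacna1s and Cacnb4 were the 4 that were higher under the negative label (6.04% of all genes). This split depended on the scaling. With arrays centred on ribosomal genes, 12 channel genes were higher under the positive label (27.9% of all genes) and 0 under the negative label (1.31%). With a renewed quantile normalisation they were 5 and 1 (6.41% and 5.02%). Cacna1s and Cacnb4 were never above 1.63 and 1.95, so their differences of -0.23 and -0.16 lie within background values. The median difference of the 35 genes was 0.14, against -0.02 over all genes, with 23 above 0 and 12 below.

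**Figure D2:**
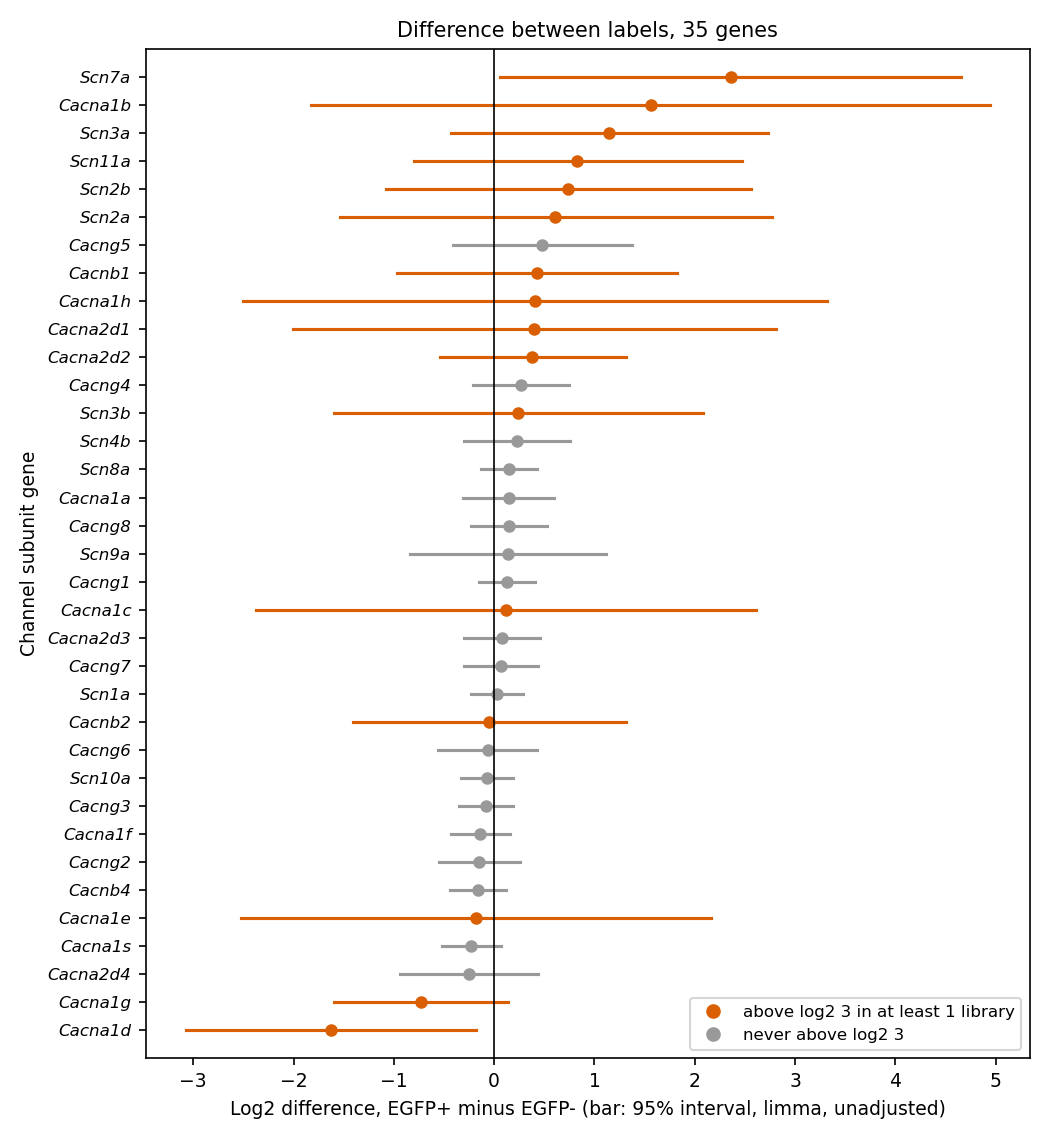
Log2 difference between the labels (horizontal axis, EGFP-positive minus EGFP-negative) for each of the 35 genes, with its 95% interval from limma, not adjusted for the number of genes. Orange marks genes above log2 3 in at least 1 library. The intervals of Scn7a (0.06 to 4.65) and Cacna1d (-3.07 to -0.18) leave out 0, and neither passed after adjustment.

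Scn7a, the glial sodium sensor gene, was higher in each library labelled EGFP-positive than in any labelled EGFP-negative. It read 9.48, 9.98 and 11.65 against 6.31, 9.09 and 8.63. EGFP-positive replicate 3 held the highest value and EGFP-negative replicate 1 the lowest by a wide margin. The difference was 2.36 (SE 0.92), a 5.13-fold ratio of the group means, and missed the threshold (adjusted p = 0.999 by limma with Benjamini-Hochberg). It shrank to 1.51 without EGFP-negative replicate 1 and was 1.72 without EGFP-positive replicate 3 and 1.49 with array weights. Within same-numbered libraries the difference was 3.17, 0.88 and 3.03. The fit with the replicate number as a block gave an SE of 0.54 (limma adjusted p = 0.661). The other probe sets of the gene gave the same order of groups, at 8.92, 9.07 and 10.71 against 4.86, 8.58 and 7.95, and at 4.81, 5.37 and 7.07 against 3.22, 4.25 and 3.75.

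Most enteric glia markers were, like Scn7a, highest in EGFP-positive replicate 3, and none passed the test. The 10 glial genes measured averaged 6.68, 6.33 and 8.36 under the positive label and 5.21, 6.11 and 5.83 under the negative label, and all 10 had a difference above 0. The groups did not overlap for 3 of them, S100b, Sox10 and Erbb3, and 3 of 10 had an unadjusted p under 0.05 by limma. None of them was near background in every library. Sox10, the transcription factor that defines enteric glia, read 8.36, 7.56 and 9.75 against 6.28, 7.14 and 6.79. Erbb3, the neuregulin receptor of the glial lineage, read 8.05, 7.46 and 9.11 against 5.27, 6.86 and 6.42. Cdh19, a cadherin of Schwann-like glia, read 6.85, 7.70 and 9.48 against 3.67, 6.89 and 6.29, so that it shared with Scn7a the deep dip in EGFP-negative replicate 1. Cryab, a small heat shock protein gene, did not dip there, at 10.09, 9.75 and 10.46 against 10.35, 9.24 and 9.47. Entpd2, an ectonucleotidase gene, read 7.96, 8.28 and 9.53 against 6.94, 8.82 and 8.38, with overlapping groups. Scn7a minus the glial mean was 2.80, 3.65 and 3.29 under the positive label and 1.10, 2.98 and 2.79 under the negative label. Its range over the 6 libraries was 2.55, against 5.34 for Scn7a itself. The part of glial content in the Scn7a difference was not tested.

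**Figure D3:**
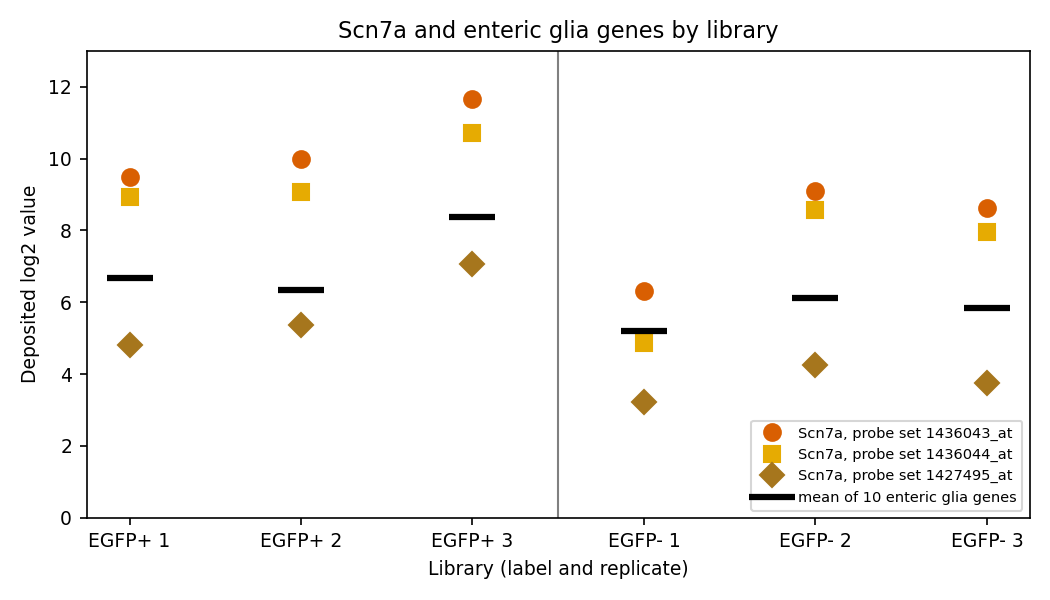
Deposited log2 values of the 3 Scn7a probe sets (points) and the mean of 10 enteric glia genes (bars) in each library. For all 3 probe sets and the glial mean, the 3 EGFP-positive libraries lie above the 3 EGFP-negative ones, with EGFP-positive replicate 3 highest and EGFP-negative replicate 1 lowest.

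The sequence before the start of Scn7a is shown because the gene lies beside sodium channel genes that behaved differently. In the RefSeq gene order Scn1a, Scn9a and Scn7a are consecutive protein-coding genes, and in these libraries Scn1a stayed at 1.48 to 1.60 and Scn9a at 1.20 to 2.61 while Scn7a reached 11.65. Levels of different probe sets cannot be ranked against each other. Each neighbour stayed under log2 3 in all 6 libraries. Below are the 250 bases before the RefSeq start of Scn7a and, for comparison, those of Cacna1b, Scn2b and Scn11a, 3 genes that were high in a single library. All are GRCm38.p6, 5′ to 3′ on the gene's strand, with each CG dinucleotide in capitals. Positions are chr2:66784911-66785160 (minus strand) for Scn7a, chr2:24763153-24763402 (minus) for Cacna1b, chr9:45117626-45117875 (plus) for Scn2b and chr9:119825457-119825706 (minus) for Scn11a.
Scn7a: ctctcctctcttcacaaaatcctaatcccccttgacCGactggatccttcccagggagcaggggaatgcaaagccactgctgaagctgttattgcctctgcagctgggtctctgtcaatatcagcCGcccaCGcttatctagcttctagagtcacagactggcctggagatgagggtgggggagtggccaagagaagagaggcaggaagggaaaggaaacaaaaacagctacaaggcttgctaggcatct
Cacna1b: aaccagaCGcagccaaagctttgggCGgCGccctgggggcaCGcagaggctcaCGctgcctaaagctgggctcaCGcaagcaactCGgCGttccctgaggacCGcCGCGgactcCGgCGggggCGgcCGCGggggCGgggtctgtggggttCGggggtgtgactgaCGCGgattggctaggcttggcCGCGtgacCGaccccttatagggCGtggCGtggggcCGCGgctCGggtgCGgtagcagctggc
Scn2b: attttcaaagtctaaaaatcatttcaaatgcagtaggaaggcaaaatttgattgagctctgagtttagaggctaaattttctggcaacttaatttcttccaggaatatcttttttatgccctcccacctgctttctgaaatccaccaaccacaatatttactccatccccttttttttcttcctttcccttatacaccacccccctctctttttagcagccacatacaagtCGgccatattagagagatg
Scn11a: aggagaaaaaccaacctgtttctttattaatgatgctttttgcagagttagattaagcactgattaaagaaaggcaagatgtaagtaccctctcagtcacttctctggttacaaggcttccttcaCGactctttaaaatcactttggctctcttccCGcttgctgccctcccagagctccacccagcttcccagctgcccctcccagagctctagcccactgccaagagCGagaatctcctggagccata

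These windows differed in base composition although the last 3 genes shared a profile. That of Cacna1b held 29 CG dinucleotides and 72.0% G and C, and those of Scn7a, Scn2b and Scn11a held 3, 1 and 3 CG dinucleotides and 53.2%, 38.4% and 48.0% G and C. The medians over 32851 RefSeq windows were 6 CG dinucleotides and 52.4%. The left arm of the RE1 element bound by the repressor REST (TTCAGCACC, both strands) was in 0 of the 37 windows of 27 channel genes in the table and in 0.301% of all windows. Its right arm (GGACAGC) was in 1 of the 37, of Cacnb1, and in 5.28% of all. The SOX core ACAAAG was in 7 of the 37 and in 16.5% of all, with Scn2a among the genes and Scn7a not. The CArG box of muscle genes was in 0 of the 37 and in 1.47% of all. No match says only that these letters are not in this window.

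Of 7 neuronal sodium channel pore genes, 3 exceeded log2 3 by the probe set used, each only in EGFP-positive replicate 3. That library alone brought them past this level, so their peak there is a description only. Scn2a, which encodes a pore subunit of central and peripheral axons, read 1.98, 2.35 and 5.19 under the positive label and 2.50, 2.68 and 2.50 under the negative label. Scn3a, a pore subunit prominent in developing neurons, read 2.32, 2.74 and 4.59 against 2.32, 2.32 and 1.55. Scn11a, which encodes the persistent-current channel of sensory and enteric neurons, read 1.71, 1.39 and 3.83 against 1.57, 1.46 and 1.40. The other 5 libraries did not exceed 2.74 for any of these. The differences were 0.61 (SE 0.86), 1.15 (SE 0.63) and 0.83 (SE 0.66), with a limma adjusted p = 1.00 for each. Without EGFP-positive replicate 3 they were -0.39, 0.47 and 0.07. For each gene only 1 probe set exceeded log2 3. The other Scn2a probe sets did not exceed 2.90 (in EGFP-positive replicate 3), 1.76 and 1.38. The other Scn3a probe set stayed at 1.22 to 1.32, and Scn11a has no other.

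Other neuronal pore subunits gave little or no signal. Scn1a and Scn10a, the latter known from nociceptors, stayed at or under 1.60 and 1.34 in the 6 libraries. Scn8a, the channel of the axon initial segment, was at 1.41 to 1.73 by its probe set with the highest mean. Another of its 5 probe sets, singled out after its values were seen, read 1.26, 1.34 and 3.11 against 1.35, 0.93 and 0.97. Scn9a, the channel of sympathetic and sensory neurons, reached 2.61 in EGFP-positive replicate 3 and 1.20 to 1.66 elsewhere.

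The beta subunits followed different libraries. Scn2b, a covalently linked adhesion-type subunit of neurons, read 2.22, 2.18 and 4.62 under the positive label and 2.21, 1.81 and 2.79 under the negative label, a difference of 0.74 (SE 0.73) that was -0.07 without EGFP-positive replicate 3. Scn3b, a noncovalently associated subunit, read 3.38, 4.83 and 4.05 against 3.20, 5.35 and 2.98. It was highest in replicate 2 of both labels, and its difference of 0.24 (SE 0.74) was -0.13 without EGFP-positive replicate 2. A gap of at least 0.5 between both replicates 2 and the other 4 libraries was found in 0.803% of all genes and in 1 of the 35, Scn3b. Both this pattern and the step of 0.5 were chosen after the values of Scn3b were seen, so the share is a description only. Of 8 enteroendocrine genes, 3 had such a gap, Insl5, Gcg and Sct, and of these Insl5 alone exceeded log2 3, at 2.66, 5.97 and 0.84 against 2.17, 5.69 and 2.10. Chga and Chgb, the chromogranin genes of the list, instead peaked in EGFP-positive replicate 3, at 4.56 and 6.40. Their list mean was 2.59, 3.69 and 2.55 against 2.07, 3.34 and 1.88, and Tph1, Gcg, Sct and Neurod1 stayed under log2 3. Of 7 endothelial genes, 2 had such a gap as well, Emcn and Tek. Emcn read 4.88, 7.43 and 4.59 against 6.68, 7.45 and 6.66, and Tek read 6.27, 7.62 and 5.56 against 6.29, 7.83 and 7.06. The part of either list in the Scn3b values was not tested. Scn4b stayed at 1.29 to 1.99. The profiles of Scn2b and Scn3b each rest on a single probe set. Other probe sets stayed at 1.45 to 1.93 and 1.47 to 2.04 for Scn2b and at 1.25 to 1.65 for Scn3b.

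Cacna1b, the pore of the N-type channel at transmitter release sites, had the largest excess in EGFP-positive replicate 3 of the 35 genes. It read 2.33, 1.86 and 6.86 under the positive label and 2.19, 2.33 and 1.87 under the negative label. The value in EGFP-positive replicate 3 was 4.54 above the next library. Its other probe sets read 6.18 and 4.70 in that library in 2 cases, and the remaining one stayed at 0.93 to 1.54. The difference was 1.56 (SE 1.36, limma adjusted p = 1.00) and -0.03 without EGFP-positive replicate 3. Cacna1a, the P/Q-type pore, stayed at 1.88 to 2.44.

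A gap of at least 1 log2 unit between EGFP-positive replicate 3 and every other library was found for 9 of the 35 genes, or 25.7%, against 3.40% of all genes. The step was chosen after the values were seen. The 9 were Cacna1b, Cacna1h, Cacnb1, Cacng5, Scn2a, Scn2b, Scn3a, Scn7a and Scn11a. Of these, Cacng5 alone never exceeded log2 3, with 2.48 as its highest value. Pan-neuronal genes showed the same gap in 11 of 13, with list means of 3.38, 3.30 and 6.63 against 3.49, 3.67 and 3.94, and glial genes in 8 of 10. Elavl3, a neuronal RNA-binding protein gene, was the only 1 of the 13 under log2 3 in every library. Relative to the pan-neuronal mean the channel genes differed. Scn2a minus that mean was -1.41, -0.95 and -1.44 against -0.99, -0.99 and -1.45, a range of 0.50 where Scn2a itself ranged over 3.21. Cacna1b minus that mean was -1.06, -1.44 and 0.24 against -1.30, -1.34 and -2.08, a range of 2.31 where Cacna1b itself ranged over 5.00, and it was still highest in EGFP-positive replicate 3. The same library had the lowest means of macrophage (2.01), endothelial (4.70) and epithelial (3.84) genes. The part of neuronal content in these values was not tested.

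**Figure D4:**
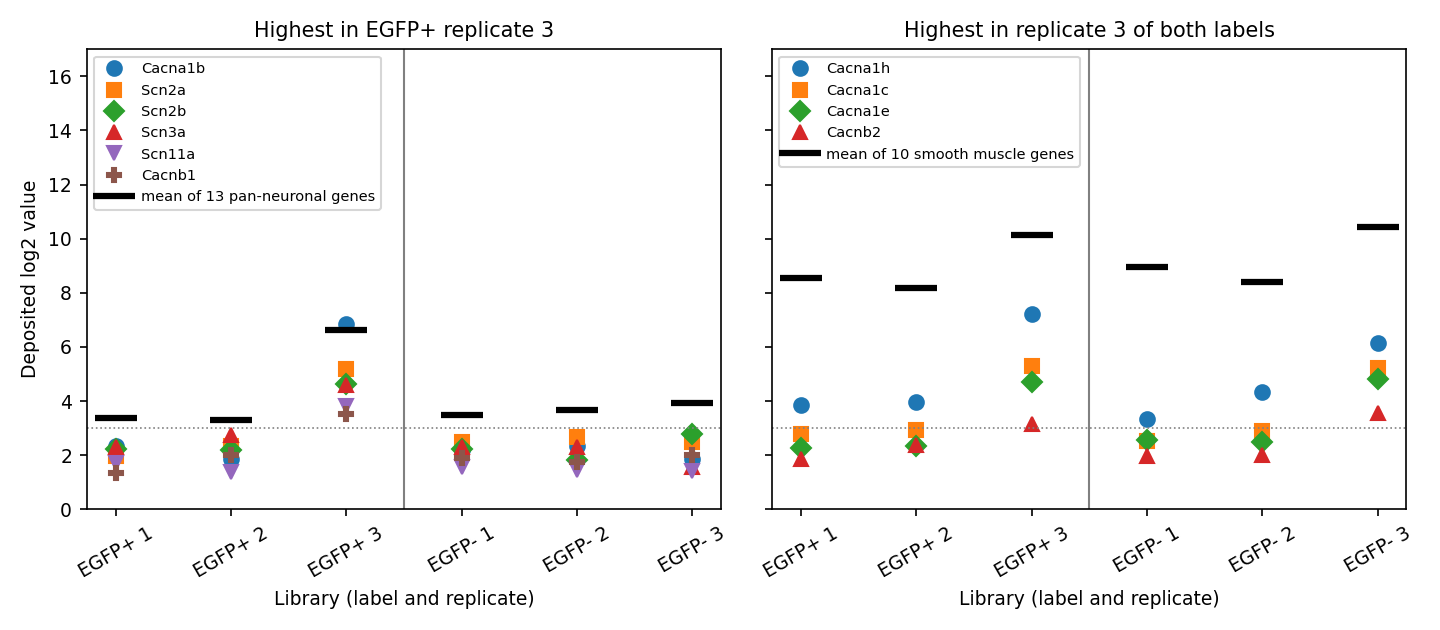
Deposited log2 values of channel genes (points) by library, beside the mean of a cell type list (bars). The dotted line is the working level of log2 3. Left, 6 genes whose highest value is in EGFP-positive replicate 3, where pan-neuronal genes average 6.63. Right, 4 genes whose 2 highest values are in replicate 3 of both labels, where smooth muscle genes average 10.15 and 10.45.

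The calcium channel genes Cacna1c, Cacna1e and Cacna1h were high in replicate 3 of both labels, and Cacna1h was also among the 9 genes above. Cacna1c, the L-type pore of smooth muscle and heart, read 2.78, 2.93 and 5.30 under the positive label and 2.54, 2.88 and 5.23 under the negative label. Its other probe set read 2.55, 2.75 and 5.83 against 2.18, 2.43 and 5.92. Cacna1h, a T-type pore, read 3.85, 3.97 and 7.22 against 3.33, 4.34 and 6.14. Cacna1e, the R-type pore better known from neurons, read 2.28, 2.33 and 4.70 against 2.56, 2.48 and 4.80. For all 3, both replicates 3 lay at least 1 log2 unit above the other 4 libraries, which was so for 8.57% of the 35 genes and 0.566% of all genes. Pattern and step were chosen after the values were seen, so these shares are a description only. The gaps of Cacna1c, Cacna1h and Cacna1e were 2.30, 1.79 and 2.14. The other probe set of Cacna1h stayed at 1.15 to 1.72 and that of Cacna1e at 0.95 to 1.33. The profiles of these genes, unlike that of Cacna1c, therefore rest on a single probe set each.

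The differences between labels were 0.12 (SE 1.00) for Cacna1c, 0.41 (SE 1.17) for Cacna1h and -0.18 (SE 0.94) for Cacna1e, with 95% intervals of -2.37 to 2.61, -2.50 to 3.32 and -2.52 to 2.16. Within the same-numbered libraries, those of Cacna1c were 0.24, 0.06 and 0.07 and those of Cacna1e were -0.28, -0.15 and -0.10, while those of Cacna1h were 0.52, -0.37 and 1.08, of mixed sign. The intervals above ignore this pairing. A fit with the replicate number as a block gave SEs of 0.12 for Cacna1c, 0.32 for Cacna1h and 0.12 for Cacna1e. None of these genes passed in it (limma adjusted p = 0.881, 0.851 and 0.815). Cacnb2, a beta subunit that partners the L-type pore in muscle, had the same order at a lower level, at 1.87, 2.36 and 3.15 against 1.98, 2.02 and 3.54. Both replicates 3 lay above the other 4 libraries by any amount for 8 of the 35 genes, or 22.9%, against 9.97% of all genes, again a description only. Smooth muscle genes also had both replicates 3 above the other 4 libraries, in 10 of 10 genes and by at least 1 unit in 5, with means of 8.55, 8.17 and 10.15 against 8.96, 8.41 and 10.45. Relative to the smooth muscle mean, Cacna1c ranged over 1.57 in the 6 libraries where it ranged over 2.76 itself. The same ranges were 0.96 and 2.53 for Cacna1e and 2.70 and 3.89 for Cacna1h. Cacna1h was also higher in EGFP-positive replicate 3 than in EGFP-negative replicate 3, by 1.08. Of 8 skeletal muscle genes 6 never exceeded log2 3, among them Myh1 and Myh4. Ckm, the muscle creatine kinase gene, was high in both replicates 3 as well, at 2.82, 2.18 and 4.30 against 2.94, 2.66 and 6.06, and Acta1 reached 3.42 in EGFP-negative replicate 3. Cacna1s and Cacng1, the pore and gamma subunit of skeletal muscle, did not exceed 1.63 and 1.36. The part of muscle content in these values was not tested.

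Cacna1d was the channel gene with the largest difference toward the negative label. The gene encodes the L-type pore of pacemaking and endocrine cells. It read 2.40, 2.01 and 2.40 under the positive label and 2.59, 4.74 and 4.37 under the negative label. EGFP-negative replicates 2 and 3 were high, and EGFP-negative replicate 1 lay only 0.19 above its same-numbered library. The difference was -1.63 (SE 0.58), or 3.09-fold, and did not pass (limma adjusted p = 0.986). It was -2.28 without EGFP-negative replicate 1. The other Cacna1d probe set stayed at 1.11 to 1.42 and gave a difference of -0.02, so the difference rests on a single probe set, whose name ends in _s_at, the array maker's mark for probes shared by several transcripts.

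Several markers of other cells were also high in EGFP-negative replicates 2 and 3. A gap of at least 1 unit between these libraries and the other 4 was found in 0.868% of all genes, in 1 of the 35, in 2 of 4 genes of interstitial cells of Cajal, in 3 of 7 lymphocyte genes and in 1 of 8 fibroblast-like genes. Pattern and step were chosen after the values of Cacna1d were seen, so these shares are a description only. Kit, the receptor that marks interstitial cells of Cajal, had 5.46, 5.10 and 3.40 against 3.16, 7.42 and 7.11. The other gene of the Cajal list with the gap was Prkcq. Ano1, the chloride channel of Cajal cells, had a flat profile at 9.78, 9.76 and 8.52 against 9.49, 9.62 and 8.99, and Thbs4 was highest in EGFP-positive replicate 2 (9.29). The Cajal list averaged 6.31, 6.90 and 5.40 against 5.42, 7.51 and 7.42, the lymphocyte list 1.99, 1.22 and 1.23 against 2.81, 4.34 and 5.21, and the fibroblast-like list 8.59, 8.85 and 8.24 against 8.57, 9.43 and 9.31. Cd3e, a T cell receptor component, and Kcnn3 stayed under log2 3 in every library. Relative to the Cajal mean, Cacna1d still differed by -1.05 between the labels and ranged over 2.11, against 2.72 for Cacna1d itself. The part of the other lists in the Cacna1d values was not tested. Cacna1g, a T-type pore, read 2.01, 2.14 and 1.70 against 2.16, 2.48 and 3.41, a difference of -0.73 (SE 0.35, limma adjusted p = 1.00) that rested largely on EGFP-negative replicate 3. Without that library it was -0.37.

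Cacna2d1, the alpha2delta subunit that binds gabapentin, differed between its probe sets. The probe set with the highest mean read 6.20, 7.10 and 7.84 under the positive label and 4.60, 7.41 and 7.92 under the negative label, a difference of 0.40 (SE 0.97) that was -0.62 without EGFP-negative replicate 1. Another read 3.43, 4.60 and 4.89 against 3.33, 5.07 and 5.81, a difference of -0.43 (SE 0.73). The probe set whose name ends in _a_at read 4.77, 4.95 and 5.41 against 3.30, 3.62 and 3.57, so that its groups did not overlap and each was narrow. Its difference was 1.55 (SE 0.20), which missed the threshold when 34945 probe sets were tested together (limma, adjusted p = 0.656). It was singled out after its values were seen. A further probe set also had groups that did not overlap, at 2.48, 2.61 and 2.36 against 2.06, 2.22 and 1.72, a difference of 0.48 below log2 3. The remaining one gave -0.06 near background. Of all 85 channel probe sets, 10 had groups that did not overlap, or 11.8%, against 9.86% of all probe sets, a share near the background.

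**Figure D5:**
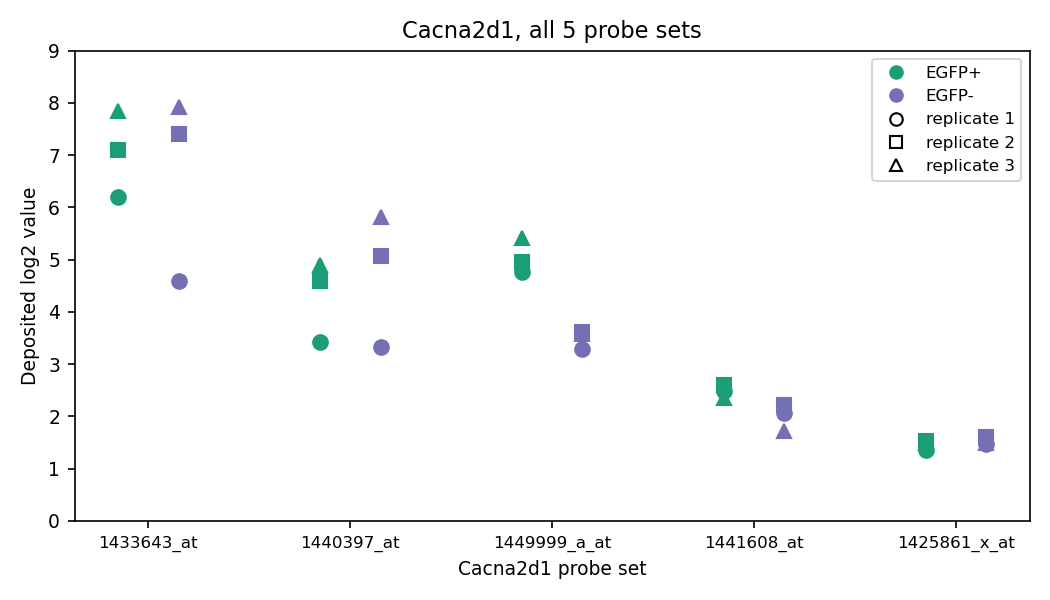
Deposited log2 values (vertical axis) of the 5 Cacna2d1 probe sets (horizontal axis) in the 6 libraries, by label (colour) and replicate number (symbol). The labels separate at the probe set ending in _a_at, with 4.77 to 5.41 against 3.30 to 3.62, and also, by less and under log2 3, at 1 other (2.36 to 2.61 against 1.72 to 2.22), and are mixed at the probe set with the highest values.

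The remaining auxiliary subunits were low. Cacna2d2, an alpha2delta subunit of brain, read 2.70, 2.06 and 3.45 under the positive label and 2.64, 2.26 and 2.16 under the negative label. Cacnb1, the beta subunit of skeletal muscle channels that is also made in neurons, read 1.35, 2.01 and 3.53 against 1.89, 1.74 and 2.00. Its difference of 0.43 (SE 0.56) was -0.19 without EGFP-positive replicate 3. The other Cacnb1 probe sets did not exceed 1.95 and gave differences of -0.06, -0.18 and -0.19. The Cacnb1 profile therefore rests on a single probe set. Cacna2d3, Cacna2d4 and Cacnb4 did not exceed 1.81, 2.23 and 1.95. Among the gamma genes, Cacng5 reached 2.48 in EGFP-positive replicate 3 and 1.03 to 1.36 elsewhere, and its other probe set did not exceed 1.39. Cacng2, the AMPA receptor partner stargazin, was at 2.17 to 2.71 in all libraries.

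Some genes whose products bind or regulate these channels had the same library profiles, and most did not. In the list of sodium channel partners and axon initial segment genes, 0 of 15 passed over all genes (limma), 1 (Ank3) did so at an unadjusted p under 0.05, and the median difference was 0.23, with 13 above 0. Ank3, the ankyrin that anchors sodium channels, read 9.49, 9.40 and 10.99 under the positive label and 8.71, 8.70 and 8.83 under the negative label, a difference of 1.21 (SE 0.45). Unc80, a subunit of the sodium leak channel, read 1.41, 1.94 and 6.39 against 2.04, 1.91 and 1.73. Cntn1, a cell adhesion molecule that associates with sodium channels, read 3.79, 4.11 and 7.03 against 3.69, 3.94 and 4.50. In this list 6 of 15 genes were at least 1 unit higher in EGFP-positive replicate 3 than elsewhere, against 3.40% of all genes. They were Fgf13, Ank2, Ank3, Cntn1, Nalcn and Unc80. Nedd4l, a ubiquitin ligase gene, was the 1 of 15 at least 1 unit higher in both replicates 3 (0.566% of all genes).

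Of the calcium channel partners and regulators, 0 of 22 passed (limma; 0 at an unadjusted p under 0.05) and the median difference was 0.06, with 14 above 0. Cachd1, an alpha2delta-like protein, read 7.02, 6.92 and 6.92 against 4.29, 6.92 and 6.44, so that only EGFP-negative replicate 1 stood far apart. Camk2b, a calcium/calmodulin-dependent kinase subunit, read 3.14, 3.41 and 5.20 against 3.22, 2.95 and 2.65. Gem, a GTPase that inhibits calcium channels, read 4.44, 4.87 and 4.87 against 4.46, 6.15 and 6.48. The profile of EGFP-positive replicate 3 appeared in 4 of 22, Camk2a, Camk2b, Jph3 and Jph4, the last 2 being the neuronal junctophilins. The profile of both replicates 3 appeared in another 4, the ryanodine receptors Ryr2 and Ryr3, the junctophilin Jph2 and the active zone gene Rims1.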

How the data were processed

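RNA of 6 sorted-cell libraries was hybridised to Affymetrix whole-genome mouse arrays. The deposited log2 values, 1 per probe set and array, were made by the authors with RMA per the submitters' processing notes. Its version and settings are not given in the sources used here. Medians per array of 1.91 to 1.99 and upper quartiles of 4.08 to 4.86 are unusual for RMA, and differences among dim values are to be read with caution. Of 45101 probe sets, 34945 had 1 symbol in the platform annotation, 932 several, 9160 none and 64 were controls, and only the first kind was used. All 35 channel symbols matched RefSeq.

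The labels were contrasted by limma 3.58.1 under R 4.3.3 (two-sided lmFit and eBayes) on the deposited values of all 18193 genes, with a Benjamini-Hochberg adjusted p of 0.05 as threshold, after a check on simulated data. Intervals are 95% and unadjusted. SEs, intervals and p-values come from the fit without a block unless another fit is named. They describe the spread of 3 against 3 pooled libraries. Named genes were those above log2 3 in any library, and for partner lists the 3 largest differences among those. The channel genes and lists were chosen with earlier results of these data known. Sequences came from RefSeq tables (GRCm38.p6), and TATA boxes showed them to be on the gene's strand.

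Replicate numbers appear in both groups in the labels. Deviations from the group means correlated within same numbers at r = 0.36, 0.32 and 0.42 over all genes, each over 0.1, so the numbers were taken to pair the libraries, and a fit with the number as a block was run beside the unblocked one. Figures used Python 3.11.15 and matplotlib 3.10.9.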

Additional observations from a re-analysis of the deposited data

How the results depend on the processing

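No channel gene passed the threshold in any of 15 alternatives (limma, smallest adjusted p = 0.16, for Cacna1d without EGFP-negative replicate 1). With the replicate number as a block, 0 genes passed and 0 of 35 channel genes did, so the pairing changed no call. The 5 channel genes whose groups did not overlap and the median difference of 0.14 cannot change with a block. Over all genes 0 to 2 passed when a library was left out, the 2 being Ccr2 and Fermt3 without EGFP-positive replicate 1. Groups did not overlap for 3 channel genes with median centring (7.67% of all genes), 12 with centring on 43 ribosomal genes (29.2%), 1 of 5 among genes above the median level (9.67%), and 6 to 11 when a library was left out (15.5% to 21.9%). The median difference was 0.40 when only genes over the median level were kept and 0.47 with ribosome centring, which moved the median of all genes from -0.02 to 0.31. Exceeding log2 2 or 4 were 23 and 11 channel genes.

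Of 16 named genes, 6 kept their direction in all alternatives that included them (Cacna1d, Cacna1g, Cacna2d2, Scn3a, Scn7a, Scn11a). Of these 6, only Scn7a was among the genes above the median level. A block or other variance settings leave each difference unchanged, so they could not turn a direction. For Scn7a the range was 1.49 (array weights) to 2.90. For Cacna1d it was -2.28 to -0.02, the last without _x_at and _s_at probe sets. The direction turned with array weights for Cacna1c (-0.28), Cacna1h (-0.31) and Cacna2d1 (-0.23), with the mean of all probe sets for Cacnb1 (-0.00041), with ribosome centring for Cacna1e (0.15) and Cacnb2 (0.28), and for Cacnb2 with median centring (0.02) and a renewed quantile normalisation (0.07). When a library was left out, differences ran from -0.03 to 2.47 for Cacna1b, -0.69 to 0.96 for Cacna1c, -0.98 to 0.58 for Cacna1e, -0.69 to 1.18 for Cacna1h, -0.62 to 1.04 for Cacna2d1, -0.19 to 0.90 for Cacnb1, -0.39 to 0.46 for Cacnb2, -0.39 to 1.21 for Scn2a, -0.07 to 1.15 for Scn2b and -0.19 to 0.99 for Scn3b. The cause was not tested. Values under log2 3 lie close to background and limit what can be read for the 19 genes never above it. The same holds in part for the named genes other than Scn7a, Cacna1h and Cacna2d1, which alone exceeded log2 3 in every library.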
